A study of Homo sapiens with 4 samples.

Results

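The transcripts described here are those of the NF-kB transcription factor subunits RELA, RELB, REL, NFKB1 and NFKB2, of the inhibitors NFKBIA, NFKBIE, NFKBIZ and TNFAIP3, and of the early response gene IER3. They were chosen by name with earlier results of these data known, so their shares beside those of all features are descriptive only. All 10 genes were found among the 30988 different names on the array. An array feature (an oligonucleotide probe) counted as theirs if its gene name was one of the 10 or its RefSeq transcript belonged to one. This gave 11 of 50238 features, 2 for TNFAIP3 and 1 for each of the other 9. RELA was found through its gene name and a cDNA clone, and the other features through their RefSeq accession.

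All RNA came from A549, an established human lung adenocarcinoma cell line with epithelial features. Both groups spent 12 h in medium with 2% serum before the experiment. One group of 2 samples was left untreated and the other group of 2 was treated with 15 µM embelin, a benzoquinone known as an inhibitor of the anti-apoptotic protein XIAP, and all 4 were collected at 4 h. The labels name no vehicle for the controls and do not say whether the replicates came from separate cultures, so the p-values below measure only the spread between these samples, which may be technical.

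NF-kB is a family of dimeric transcription factors built from 5 subunits that share a Rel homology domain for DNA binding and pairing. In resting cells the dimers are held inactive by inhibitor proteins of the IκB family. Signals from cytokine receptors, DNA damage or oxidative stress activate the IκB kinases, the inhibitors are degraded, and free dimers move to the nucleus and bind kappa-B sites. Several of the genes that NF-kB switches on encode its own subunits and inhibitors, so that their transcripts are widely read as a record of recent NF-kB activity.

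Each RNA was labelled with Cy3 and hybridised to 1 array, and the 4 arrays lay on 1 slide read in 1 scan. The controls lay at the outer positions 4 and 1 and the embelin samples at the inner positions 2 and 3, so that inner position and treatment cannot be told apart. The share of features well above background was 66.7% for control 1 and 66.4% for embelin 2, but 50.3% for control 2 and 51.2% for embelin 1, which gives a pair of arrays with lower background and a pair with higher background, each with 1 sample of either group. Intensities were shifted to equal 75th percentiles, which lay at 9.40 on the log2 scale, and these normalised log2 signals are the levels given below. In bulk RNA, a change in the number of cells with a transcript and a change in transcript per cell cannot be told apart. All 5 epithelial markers listed (KRT8, KRT18, KRT19, EPCAM and CDH1) were well above background on all 4 arrays, while of the 12 leukocyte, endothelial and fibroblast markers this held for CD14 alone, and CDH5, DCN and PDGFRB, among others, were well above background on no array. The summed leukocyte signal lay between 9.59 and 9.83 on the controls and between 9.08 and 9.79 with embelin, and the endothelial and fibroblast sums overlapped between the groups (5.27 to 6.01 against 5.53 to 5.94, and 4.93 to 7.73 against 4.68 to 8.99). Of the leukocyte markers tested, CD14 had a log2 fold change of -0.60 (adjusted p = 0.268 from limma) and CD3E, not well above background on control 2, one of 1.25 (adjusted p = 0.308 from limma). Their part in the results below was not tested.

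Across the family, 8 of the 10 transcripts had a higher mean signal with embelin, and 45.4% of all 26145 features tested did. The largest differences were in IER3, TNFAIP3, RELB, NFKB2 and RELA, which were 3.91-fold, 2.86-fold, 2.75-fold, 2.18-fold and 2.05-fold higher. NFKBIE and NFKB1 were 1.78-fold and 1.65-fold higher, NFKBIZ and NFKBIA differed by less than the spread between arrays, and REL was slightly lower. The first 5 passed a threshold of 2-fold with p under 0.05 in limma without adjustment, which 4.58% of all features passed upwards and 3.78% downwards. After Benjamini-Hochberg adjustment over all 26145 features limma called none of the 10, against 1.08% of all features in either direction. The lowest adjusted p of a member was 0.0510, for IER3, and that of any feature was 0.0255. Without adjustment 7 of the 10 were higher with p under 0.05, namely these 5, NFKBIE and NFKB1, and so were 8.27% of all features. The 2 embelin arrays lay above both controls for those 7 and below both for REL, while over all features with a value on every array 21.4% lay above and 28.3% below. The median log2 fold change of the members was 0.93 and that of all features was -0.04. With 2 samples against 2, an exact permutation test could not give a two-sided p under 0.333, and the fit across all features was used throughout.

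**Figure D1:**
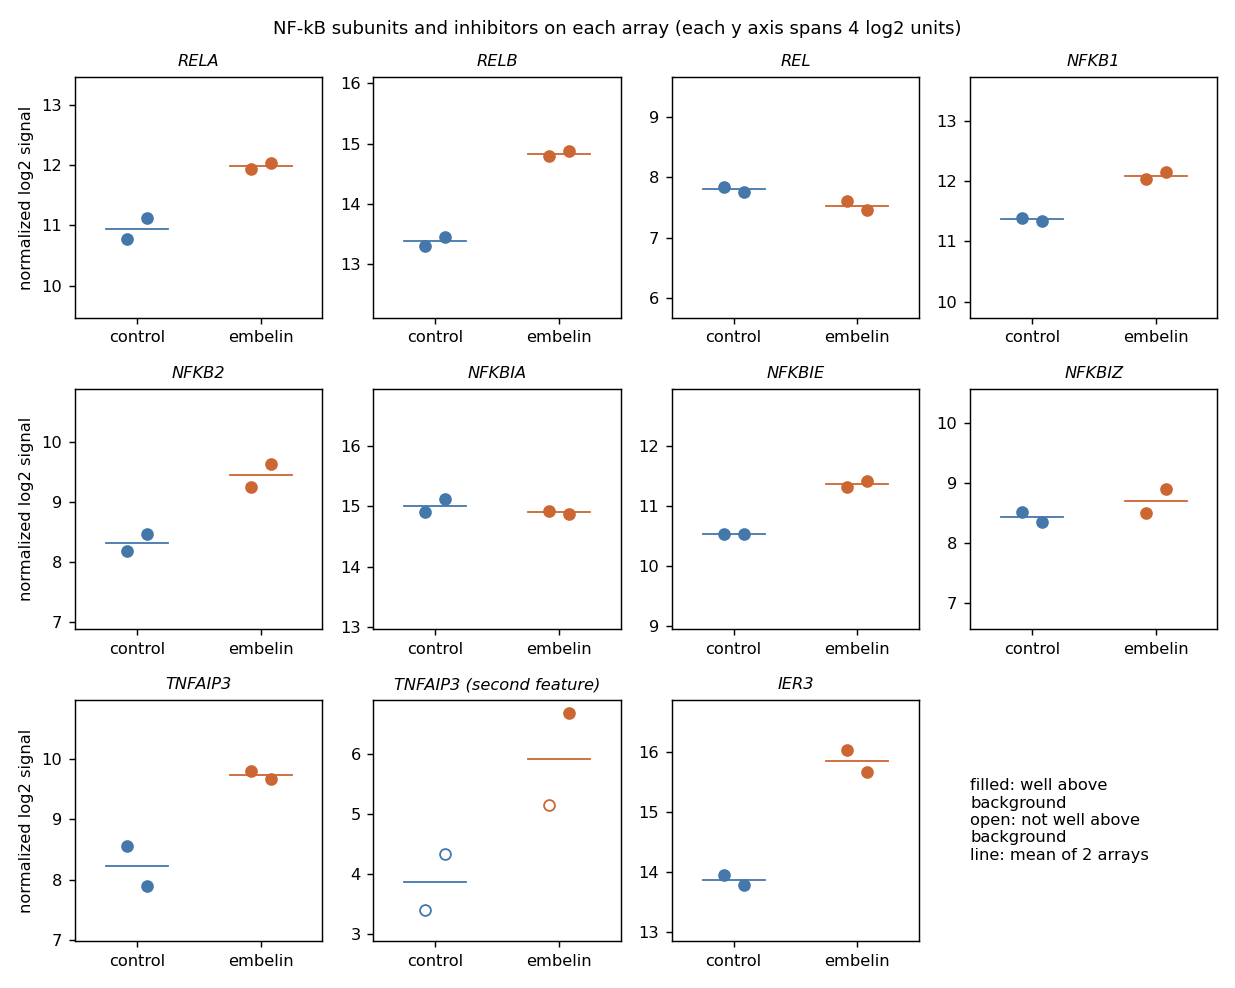
Normalised log2 signal (y axis, each panel spanning the same range) of the 11 features on the 2 control and 2 embelin arrays (x axis), with filled points well above background, open points not, and a line at the mean of 2 arrays. Embelin points lie above both control points for IER3, TNFAIP3, RELB, NFKB2, RELA, NFKBIE and NFKB1, and below both for REL, while for NFKBIA and NFKBIZ 1 of the 2 embelin points lies between the controls.

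RELA encodes p65, the subunit with a strong activation domain that pairs with p50 in the most common NF-kB dimer. Its signal was 10.78 and 11.12 in the controls and 11.93 and 12.03 with embelin. The lower embelin array lay 0.81 above the higher control. This corresponds to a log2 fold change of 1.03 (standard error 0.21, 95% interval 0.47 to 1.60, adjusted p = 0.117 from limma). The feature was designed on a cDNA clone, and which of the RELA transcripts it reads was not tested.

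RELB encodes the activating partner of p52 and is the main output subunit of the non-canonical pathway, in which signals through the kinase NIK lead to processing of the NFKB2 product. RELB signal was 13.30 and 13.45 in the controls and 14.79 and 14.88 with embelin. Both pairs of replicates were tight and the groups were 1.34 apart at their nearest. The log2 fold change was 1.46 (standard error 0.18, 95% interval 0.97 to 1.95), and its adjusted p from limma was 0.0580. Before the shift the intensities were 10742 and 9928 in the controls and 27041 and 32919 with embelin, so that the difference was present without normalisation.

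NFKB2 encodes p100, which holds RELB in the cytoplasm and is cut to the DNA-binding subunit p52. Its signal was 8.18 and 8.46 in the controls and 9.25 and 9.64 with embelin. The groups did not overlap, although the embelin arrays differed from each other by more than those of RELB or NFKB1. On the log2 scale embelin exceeded control by 1.13 (standard error 0.24, 95% interval 0.49 to 1.77, adjusted p = 0.123 from limma). NFKB1, which encodes p105 and its product p50, was at 11.39 and 11.35 in the controls and at 12.04 and 12.15 with embelin. The difference was smaller but the replicates were tight, and the fit gave 0.73 on the log2 scale (standard error 0.18, 95% interval 0.25 to 1.20, adjusted p = 0.154 from limma).

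REL encodes c-Rel, a subunit best known from lymphocytes. It was at 7.84 and 7.76 in the controls and at 7.61 and 7.45 with embelin, so that it alone of the 5 subunits had the lower values with embelin on both arrays. The log2 fold change was -0.27 (standard error 0.18, 95% interval -0.77 to 0.22, adjusted p = 0.505 from limma), and the interval spans 0. Over the 5 subunits the median log2 fold change was 1.03. The 2-fold threshold without adjustment was passed by 3 of 5, and upwards by 4.58% of all features. Of these subunits, RELA and NFKB2 fell under 2-fold with control 1 or embelin 2 left out. The array sequences of NFKB2 and REL are shown as those of a subunit above and the subunit below 0. Each is the 60-base oligonucleotide given in the scanner files and has 1 reading frame without a stop codon.
NFKB2 oligonucleotide: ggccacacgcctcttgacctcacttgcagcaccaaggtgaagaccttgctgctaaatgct
REL oligonucleotide: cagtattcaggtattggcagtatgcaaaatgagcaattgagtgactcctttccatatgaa

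**Figure D2:**
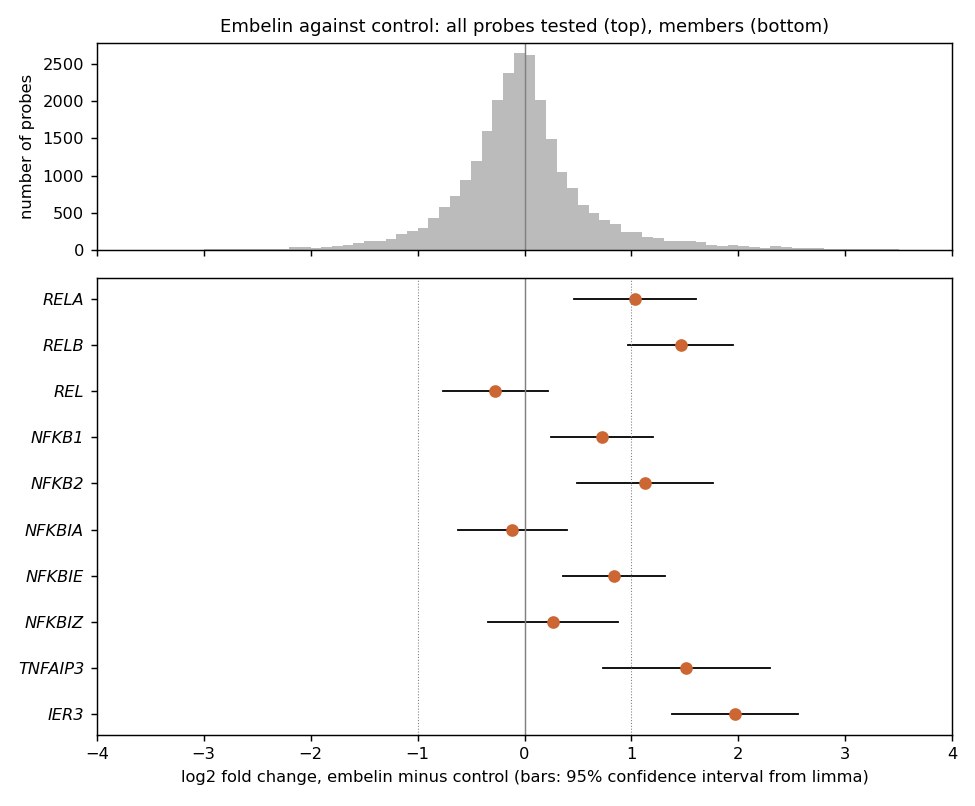
Top, histogram of log2 fold changes (x axis, embelin minus control) of the 26145 features tested, with the number of features on the y axis; bottom, the 10 tested member features (points) with 95% confidence intervals from limma (bars) and dotted lines at 2-fold. The intervals of REL, NFKBIA and NFKBIZ span 0 and those of the other 7 lie above it.

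Among the inhibitors, NFKBIA encodes IκBα, the classical inhibitor that is degraded and made anew within each round of NF-kB activation. Its signal was 14.90 and 15.12 in the controls and 14.93 and 14.87 with embelin. The embelin values lay on either side of the lower control, and the groups overlapped. Embelin minus control was -0.12 on the log2 scale (standard error 0.19, 95% interval -0.62 to 0.39, adjusted p = 0.817 from limma). As folds the interval runs from 0.65 to 1.31, which leaves room for a change in either direction. With intensities of 29797 to 32646 on the 4 arrays the feature was bright, and no spot on any array was marked as saturated.

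NFKBIE encodes IκBε, another inducible inhibitor, which prefers dimers of RELA and c-Rel. It was at 10.53 and 10.52 in the controls and at 11.31 and 11.42 with embelin. The controls were nearly equal and the groups were 0.77 apart. The log2 fold change was 0.83 (standard error 0.18, 95% interval 0.36 to 1.31, adjusted p = 0.125 from limma). NFKBIZ encodes the nuclear protein IκBζ, which is needed for a subset of secondary NF-kB targets but is counted here with the inhibitors. It was at 8.52 and 8.34 in the controls and at 8.50 and 8.89 with embelin, and the groups overlapped. Its log2 fold change was 0.27 (standard error 0.22, 95% interval -0.34 to 0.88, adjusted p = 0.602 from limma).

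TNFAIP3 encodes A20, a ubiquitin-editing enzyme that shuts off signalling to the IκB kinases. At its brighter feature the signal was 8.56 and 7.89 in the controls and 9.81 and 9.67 with embelin. The controls were further apart than those of any other member, yet the higher of them lay 1.11 below the lower embelin array. Limma gave a log2 fold change of 1.51 (standard error 0.29, 95% interval 0.73 to 2.30, adjusted p = 0.106 from limma). The other TNFAIP3 feature was dim and did not pass the filter on low signal. It read 3.40 and 4.34 in the controls and 5.15 and 6.68 with embelin, and only embelin 2 was well above background. With 3 of the 4 values not measured above background, no fold is given for it. The sequence of the dim one is shown because it is a second, separate oligonucleotide for the same transcript.
TNFAIP3 dim oligonucleotide: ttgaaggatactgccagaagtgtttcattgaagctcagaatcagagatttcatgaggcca

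IER3, also known as IEX-1, is an immediate early gene that NF-kB, p53 and growth factor signals induce and that modulates cell survival. Its signal was 13.96 and 13.79 in the controls and 16.02 and 15.66 with embelin. The gap between the groups, 1.71, was the widest of the family. The log2 fold change was 1.97 (standard error 0.22, 95% interval 1.38 to 2.56, adjusted p = 0.0510 from limma), larger than that of 98.0% of all features tested. Unshifted intensities were 16919 and 12595 in the controls and 63738 and 56541 with embelin.

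The values were also read within each pair of arrays of like background. In the pair with lower background the log2 difference was 1.71 for IER3, 1.58 for RELB, 1.46 for NFKB2, 1.25 for RELA and 1.11 for TNFAIP3. In the pair with higher background these were 2.23, 1.34, 0.79, 0.81 and 1.92 in the same order. For each of the 5 the difference was above 0 in both pairs. This had to be so because their groups do not overlap, so the pairs add only its size. It was 0.76 and 0.69 for NFKB1, 0.88 and 0.78 for NFKBIE and 0.37 and 0.17 for NFKBIZ. REL was lower in both pairs, by log2 differences of -0.39 and -0.16, and NFKBIA lay at -0.03 and -0.20. With 1 array left out at a time, the fold change ranged from 1.79 to 2.15 on the log2 scale for IER3, from 1.39 to 1.53 for RELB, from 1.18 to 1.85 for TNFAIP3, from 0.93 to 1.32 for NFKB2 and from 0.86 to 1.20 for RELA. NFKB2 and RELA therefore fell under 2-fold without control 1 or without embelin 2, which leaves 3 members past the 2-fold threshold in each of these cases, IER3, RELB and TNFAIP3.

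**Figure D3:**
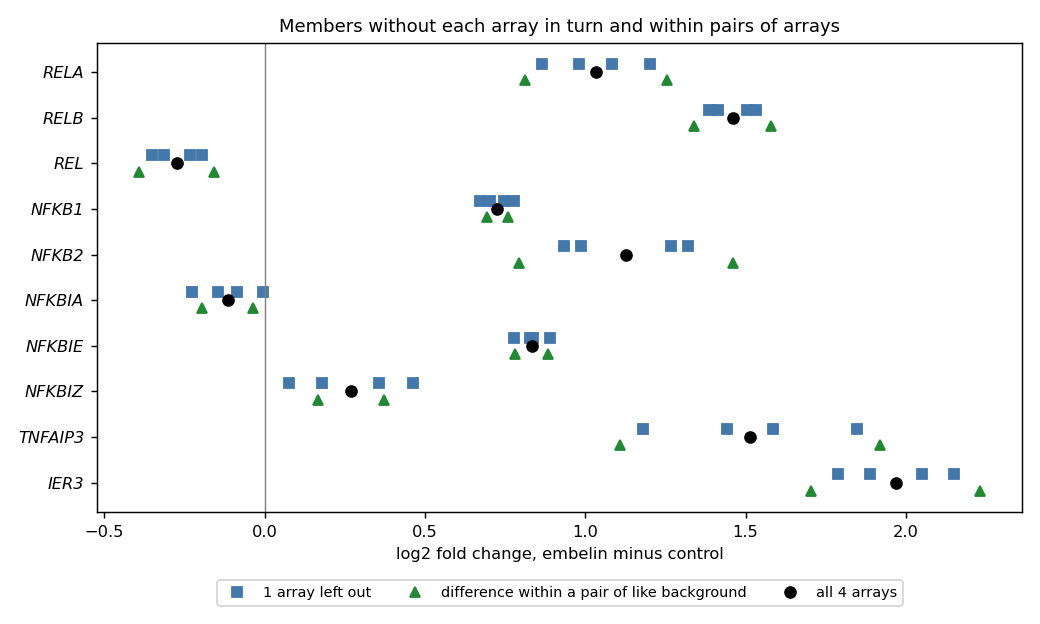
Log2 fold change, embelin minus control (x axis), of the 10 members with all 4 arrays (circles), with 1 array left out (squares) and within the pairs of arrays of like background (triangles). For IER3, RELB, TNFAIP3, NFKB2, RELA, NFKB1, NFKBIE and NFKBIZ every symbol lies above 0, for REL every symbol lies below 0, and for NFKBIA all lie close to 0, from -0.23 to -0.01 with 1 array left out.

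Kappa-B sites close to the start of the members' own genes are shown next, since such sites are the known route of NF-kB feedback. The RefSeq promoter table (GRCh38.p14) listed 7 of the 10 members, with 12 transcript starts. It had no entry for RELB, NFKBIE and IER3. The 250 bases before each start were searched on both strands for the 10-base kappa-B consensus, and matches on the opposite strands may overlap. At least 1 match was found before 8 of the 12 starts (66.7%), in 6 members, while 9.96% of all 35116 promoters held one. Among starts of the NF-kB target genes listed further on, 18 of 49 (36.7%) did. The members' matches lay at 11 places, 4 of them in NFKB2, and no match was found before either start of RELA. In the lines below, written 5′ to 3′ along the gene's strand, which each line names, capitals mark the match. The matches shown for NFKBIA and TNFAIP3 are to the consensus on the opposite strand. A further place before a start of NFKB2 and another before a start of NFKBIZ are not shown.
NFKB1, chr4:102501300-102501329, plus strand, 49 to 40 bases before the start: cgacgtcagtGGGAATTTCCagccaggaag
NFKB2, chr10:102394461-102394490, plus strand, further before a start: gaaacgtcatGGGAATTCCCccctccgggg
NFKB2, chr10:102394490-102394519, plus strand, 78 to 69 bases before the same start: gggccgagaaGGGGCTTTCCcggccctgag
NFKB2, chr10:102395674-102395703, plus strand, 21 to 12 bases before another start: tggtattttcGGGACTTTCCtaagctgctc
REL, chr2:60881517-60881546, plus strand, 47 to 38 bases before the start: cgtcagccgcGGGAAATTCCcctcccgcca
NFKBIA, chr14:35404811-35404840, minus strand, 81 to 72 bases before the start: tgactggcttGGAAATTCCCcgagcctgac
NFKBIZ, chr3:101827757-101827786, plus strand, 223 to 214 bases before a start: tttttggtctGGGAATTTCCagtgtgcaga
TNFAIP3, chr6:137867182-137867211, plus strand, 67 to 58 bases before the start: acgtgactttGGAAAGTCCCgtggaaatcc
TNFAIP3, chr6:137867194-137867223, plus strand, 55 to 46 bases before the start: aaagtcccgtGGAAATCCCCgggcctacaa
Matches were present both in members with higher signal with embelin (NFKB1, NFKB2, TNFAIP3) and in those whose intervals span 0 (REL, NFKBIA, NFKBIZ), and RELA, without one in these windows, was 2.05-fold higher. A match describes the letters of the sequence and is not a measurement of binding.

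**Figure D4:**
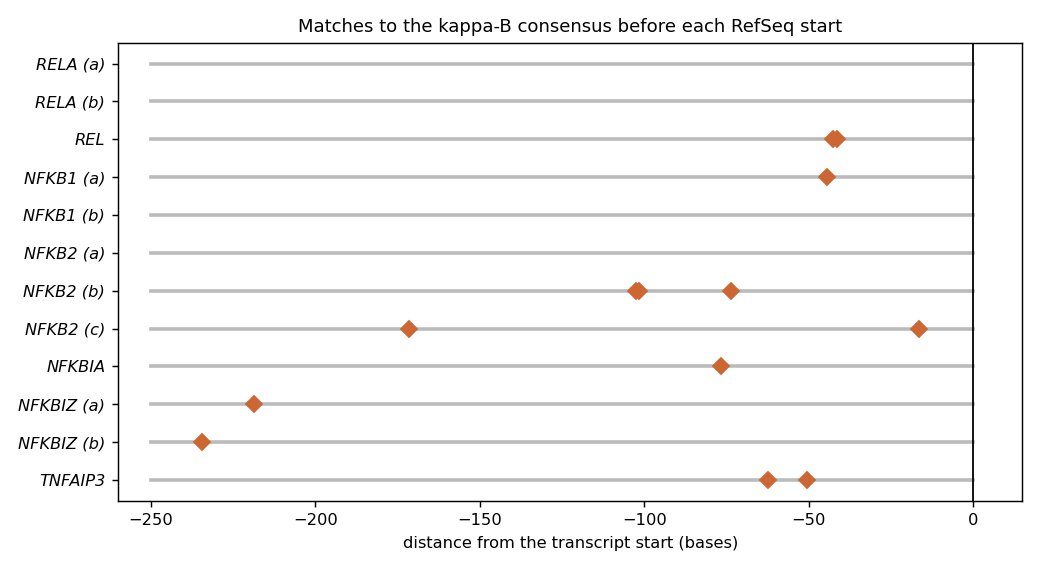
Position of each match to the kappa-B consensus (diamonds) in the 250 bases before each RefSeq start (x axis, distance from the start in bases) of the 7 members in the promoter table, with letters for the different starts of a gene. The matches of REL, NFKB1, NFKBIA and TNFAIP3 lie closer to the start than those of NFKBIZ, NFKB2 has 4 places before 2 of its starts, and RELA has none.

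Other genes of the pathway were read from 5 lists with 92 genes in all, of which 83 passed the filter on low signal in at least 1 feature. These lists too were chosen with earlier results of these data known. Each gene was represented by its brightest feature. After adjustment 3 rose and 0 fell in limma, against 1.08% of all features called. At p under 0.05 without adjustment 35 of the 83 differed, and 17.9% of all features did. Of the 83, 15 were also at least 2-fold higher and 4 at least 2-fold lower, where all features had 4.58% and 3.78%.

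Receptors that feed the pathway were mixed. Of 10 listed, 7 were tested, with a median log2 fold change of -0.32. IL1RAP, the shared chain of the interleukin-1 receptors, was at 8.44 and 7.84 in the controls and at 9.84 and 9.97 with embelin (log2 fold change 1.77, adjusted p = 0.0753 from limma). Its other features gave 2.07 (adjusted p = 0.0465 from limma, called), 1.53 (adjusted p = 0.114 from limma) and -0.29 (adjusted p = 0.936 from limma). TNFRSF11A, the receptor for RANK ligand, was higher by 1.73 (adjusted p = 0.0632 from limma), and the TNF receptor TNFRSF1A had a log2 fold change of -0.98 (adjusted p = 0.274 from limma). TLR4, named after its value was seen, was counted past 2-fold downwards on thin data. It read 7.07 on control 2, its value on control 1 had been dropped as an outlier, and with embelin it read 3.68 and 4.83, of which the first was not well above background (adjusted p = 0.162 from limma). Its fold is therefore not a measured one.

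The adaptors and ubiquitin ligases and the kinases between the receptors and NF-kB had median log2 fold changes of 0.08 and -0.02. None of the 14 adaptors and ligases and none of the 10 kinases was called or passed 2-fold with p under 0.05. Over all features 1.08% were called, and 4.58% passed 2-fold upwards and 3.78% downwards, so lists this short could hold none. The groups did not overlap upwards for 5 adaptors and ligases and 2 kinases, and downwards for 2 and 2. Over all features these shares were 21.4% and 28.3%. XIAP, the ligase that embelin is known to bind, was at 8.74 and 7.61 in the controls and at 9.42 and 8.83 with embelin, a log2 fold change of 0.95 with a wide spread (standard error 0.46, adjusted p = 0.387 from limma). Of the subunits of the linear ubiquitin ligase, RBCK1 was at 0.89 (adjusted p = 0.213 from limma), RNF31 at -0.74 (adjusted p = 0.145 from limma) and SHARPIN, named after its value was seen, at -0.23 with overlapping groups. The IκB kinase genes IKBKB, CHUK and IKBKG, named after their values were seen, had log2 fold changes of 0.05, -0.09 and -0.23, each with overlapping groups. MAP3K14, which encodes NIK, the kinase above RELB and p100, was lower, at 11.20 and 11.27 in the controls and 10.22 and 10.44 with embelin (log2 fold change -0.91, adjusted p = 0.120 from limma). TAB3 and TBK1 had log2 fold changes of 0.41 and 0.33, with adjusted p of 0.471 and 0.449 from limma.

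Of 17 other inhibitors listed 15 were tested, none was called or passed 2-fold with p under 0.05, and the median log2 fold change was 0.17. Of all features 1.08% were called, and 4.58% passed 2-fold upwards and 3.78% downwards, so a list this short could hold none. TNIP2 and TNIP1, which bind A20, were at 0.93 (adjusted p = 0.329 from limma) and 0.76 (adjusted p = 0.158 from limma), and the other TNIP1 feature gave 0.87. OTUD7B, a deubiquitinase related to A20, was at 0.54 (adjusted p = 0.360 from limma) and was not well above background on control 2. Its other feature gave 0.69 (adjusted p = 0.303 from limma). The family members NFKBIB and BCL3, named like CYLD and N4BP1 after their values were seen, were at 0.00 and 0.17. The 2 features of CYLD gave 0.40 (adjusted p = 0.484 from limma) and 3.20 (adjusted p = 0.309 from limma). Those of N4BP1 gave -0.44 (adjusted p = 0.323 from limma) and 0.90 (adjusted p = 0.137 from limma). None of these features was called.

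Of 41 target genes listed 37 were tested, with a median log2 fold change of 0.29. Of these, 13 were at least 2-fold higher and 3 at least 2-fold lower at p under 0.05 without adjustment. Over all features tested the shares were 4.58% and 3.78%. Among the 13, CXCL8 and TNF, the latter named after its value was seen, were not well above background on control 2. Both passed the filter on low signal only through the embelin arrays. The targets called after adjustment were PTGS2, CSF2 and ICAM1. PTGS2, the inducible cyclooxygenase, rose from 11.63 and 11.23 in the controls to 14.73 and 14.58 with embelin (log2 fold change 3.22, standard error 0.23, adjusted p = 0.0285 from limma), and its other feature gave 3.33. CSF2, the cytokine GM-CSF, rose from 6.54 and 6.25 to 8.71 and 8.78 (log2 fold change 2.35, adjusted p = 0.0343 from limma). ICAM1, an adhesion molecule, rose from 8.57 and 8.61 to 10.39 and 10.60 (log2 fold change 1.91, adjusted p = 0.0437 from limma), and its other features gave 1.98 and 2.05. Below the threshold came the syndecan SDC4 at 1.77 (adjusted p = 0.0941 from limma) and the chemokine CXCL8 at 1.64 (adjusted p = 0.160 from limma), which was not well above background on control 2. TRAF1, a signalling adaptor induced by NF-kB, was at 1.52 (adjusted p = 0.0570 from limma) and at 2.01 in its other feature.

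The 3 targets past 2-fold downwards were CXCL1, CXCL2 and IL6, named after their values were seen. CXCL1 was at 15.89 and 16.14 in the controls and at 14.95 and 14.85 with embelin, a log2 fold change of -1.11 (adjusted p = 0.0928 from limma). CXCL2 and IL6 were at -1.10 (adjusted p = 0.101 from limma) and -1.07 (adjusted p = 0.0932 from limma). All 3 had groups that did not overlap, which their choice by fold and p favours, and 28.3% of all features lay below in this way. The listed targets lay on both sides of 0. Whether target genes above and below 0 differ in their dependence on single NF-kB subunits was not tested.

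**Figure D5:**
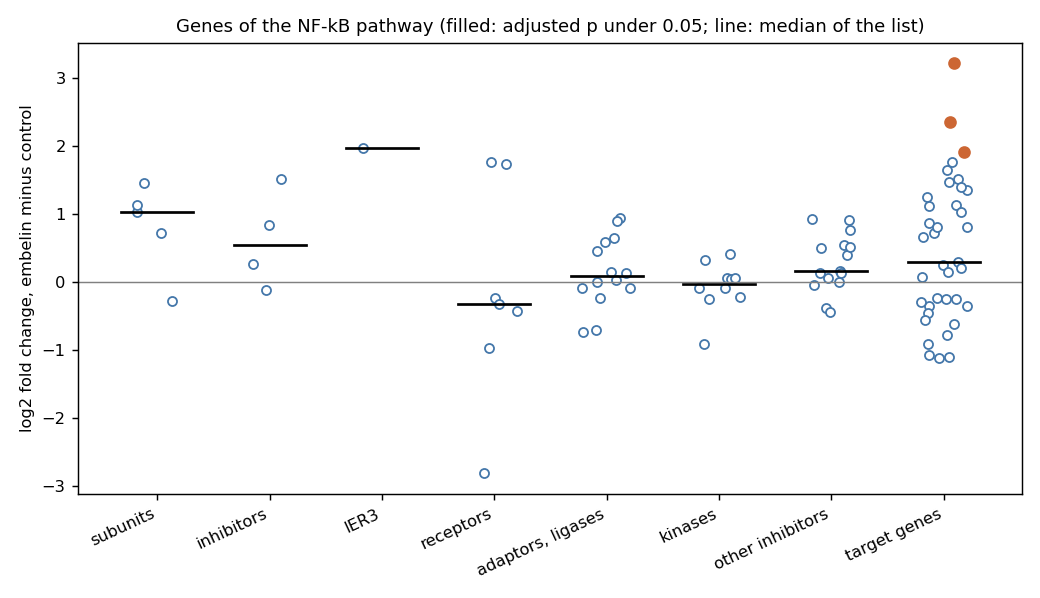
Log2 fold change, embelin minus control (y axis), of the members (subunits, inhibitors and IER3) and of the genes of the 5 pathway lists (x axis), 1 point a gene at its brightest feature, with a line at the median of each list and filled points for an adjusted p under 0.05 in limma. The subunits have a median of 1.03 and the inhibitors one of 0.55, while the medians of the adaptors, kinases and other inhibitors lie near 0. The filled points are the targets PTGS2, CSF2 and ICAM1.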

How the data were processed

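The authors deposited scanner intensities from Agilent's Feature Extraction (10.7.3.1, per the file headers), with background subtracted but arrays not normalized to each other, and a table of intensities per feature that differed from the spot averages by over 0.001 in log2 for 97 to 117 features an array. Here the shift to equal 75th percentiles named in the study's methods was applied over all non-control spots, the floor was 1, and log2 was taken. Outlier spots were dropped, the other spots of a feature were averaged, and a feature was kept if both arrays of a group, in 1 group or in both, were well above background. This left 26145 to test.

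Embelin and control were compared by limma 3.58.1 (R 4.3.3) with lmFit and eBayes and no block, and p was adjusted by Benjamini-Hochberg over all features tested, with a threshold of 0.05. A 2-fold change with p under 0.05 without adjustment, the threshold of the methods with limma in place of Student's test, was counted as well. The fit was tested on simulated data. The number of arrays limits the precision.

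Named were all 10 members, every list gene called, and otherwise the 3 genes of each list with the largest difference and groups that did not overlap. Genes outside this rule are marked in the text. One marker gene is not reported here by name. The members and lists were chosen with earlier results of these data known. Alternatives were normexp (offset 50), quantile normalization, the deposited table, other filters, eBayes with trend and robust, the methods' t-test, a replicate or background block, array position, 1 feature per gene and leaving out each array. A percentile without outlier spots was added after the data were seen.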

Additional observations from a re-analysis of the deposited data

How the results depend on the processing

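No member changed direction under any of the 16 alternatives, 4 of which leave out 1 array, but calls after adjustment depended on the setting. Many of these could not change a direction. Other filters, tests, blocks, array position and 1 feature per gene left the members' log2 fold changes as they were. Where groups do not overlap, leaving out 1 array cannot reverse a member. With all 4 arrays as reported limma called 0 members. It called 2 with normexp background correction, 2 with features well above background on all 4 arrays, 2 with 1 feature per gene and 5 with eBayes with trend and robust. RELB and IER3 were called in each of these 4 (with 1 feature per gene at adjusted p of 0.0480 and 0.0452), joined by RELA, NFKBIE and TNFAIP3 with trend and robust. All features called then numbered 835, 768, 320 and 1296. Members past 2-fold without adjustment, 5 as reported, were 4 with normexp (NFKB2 at 1.00 on the log2 scale, just under 2-fold) and ranged from 3 to 5 with 1 array left out. The share of all features past it was 12.30% and 12.04% in the fits with 3 members, without control 1 and without embelin 2, and 8.44% and 7.65% in those with 5. Pathway list genes called, 3 as reported, were 10 with normexp, 11 with the filter on all 4 arrays, 17 with trend and robust and 5 with 1 feature per gene. They were 0 with no filter on dim features, with the methods' t-test, with the background block and with array position as a covariate. In each of these settings 0 of all features tested were called.

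The labels do not say whether replicate numbers mark a shared culture or day (r of the deviations of same-numbered arrays 0.21 over 22415 features). With the replicate block limma called 0 of all 26145 features, and so 0 members and 0 list genes. IER3 and RELB then had adjusted p of 0.0876 and 0.0988 from limma. A group left with 1 array takes its spread from the other group. A fold change near 2, as for RELA and NFKB2, cannot be placed on either side of 2-fold with 2 arrays a group.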
